A study of Rattus norvegicus with 47 samples.

Results

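The urinary small RNA of rats on a high-fat diet was compared with that of rats on a standard diet, over every class of small RNA in the urine table. This comparison took in 16 of the 47 libraries of the series, 8 from high-fat diet (HFD)-fed rats and 8 from standard diet (SD)-fed rats, chosen by the diet given in the sample labels. The animals were young male Wistar Han rats, an outbred strain with no genetic modification, and both groups were housed alike and fed their diet for 10 weeks. Both diets were commercial products that differed in more than fat. The high-fat diet also held more protein by weight and more energy per gram, so that the contrast is between whole diets and not of fat alone. Each library came from the urine of 1 rat, collected in a metabolic cage. The same volume of urine was extracted from every rat, and the RNA was a mixture of cell-free and exosomal RNA, sized on a gel before sequencing. The question asked by the study was which urinary small RNAs mark the early kidney disease that accompanies obesity.

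MicroRNAs (miRNAs) are short RNAs that repress messenger RNAs through base pairing, and the pairing is set mainly by the seed, bases 2 to 8 counted from the 5′ end. miRNAs with the same seed are expected to share many targets, and families are grouped here by name, so that some, such as miR-200 and miR-10/99/100, hold more than 1 seed. Urine holds miRNAs inside vesicles and bound to proteins, shed by the epithelium of the nephron and of the lower urinary tract, and in much larger amounts the stable pieces of transfer RNAs (tRNAs), which are cut at the anticodon loop under stress. Small nuclear RNAs (snRNAs) of the spliceosome and small nucleolar RNAs (snoRNAs), which guide the modification of ribosomal RNA, normally stay in the nucleus. In a bulk urine sample, fewer shedding cells and less RNA shed per cell cannot be told apart.

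The miRNAs that carried the diet contrast are shown here by their mature sequence, 5′ to 3′, with the seed in capitals, as RefSeq gives them for the GRCr8 build. Of the 105 distinct miRNA names in the table, 95 were matched to a RefSeq sequence. The first pair are the miR-101 members and the second pair the miR-30 members with the smallest p-values:
miR-101a-3p: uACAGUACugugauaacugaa
miR-101b-3p: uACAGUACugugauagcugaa
miR-30a-5p: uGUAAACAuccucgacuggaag
miR-30e-5p: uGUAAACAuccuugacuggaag
These were followed by members of the let-7 family, which all start with the same seed:
let-7i-5p: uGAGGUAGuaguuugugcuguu
let-7f-5p: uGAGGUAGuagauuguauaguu
let-7a-5p: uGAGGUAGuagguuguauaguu
The next 5 each have a seed that no other matched miRNA of the table shares, apart from miR-29a-3p, whose seed is common to the 3 miR-29 members:
miR-205: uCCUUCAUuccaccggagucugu
miR-203a-3p: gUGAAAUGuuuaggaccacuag
miR-218a-5p: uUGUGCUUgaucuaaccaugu
miR-9a-5p: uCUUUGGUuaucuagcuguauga
miR-29a-3p: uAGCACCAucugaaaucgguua

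Several of these differ by a single base, so reads carrying 1 error can pass between them. Counted from the 5′ end, miR-101b-3p differed from miR-101a-3p by A16G, miR-30e-5p from miR-30a-5p by C13U, and let-7f-5p from let-7a-5p by G12A. The let-7i-5p sequence differed from that of let-7f-5p at 4 positions. How many reads passed between the members of the single-base pairs was not measured, so the level of each carries an unknown error.

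The depth of the urine libraries followed the diet. Assigned reads, the sum over all rows of the table, ran from 963118 to 11932003 in the 8 HFD libraries with a median of 5382860, against 282241 to 2570715 in the 8 SD libraries with a median of 1323860. The difference of 2.17 on the log2 scale had a two-sided exact permutation p of 0.00295. Of the 5 shallow libraries, with 282241 to 963118 reads, 1 was HFD (rat 1275) and 4 were SD (rats 1244, 1247, 1248 and 1249). The remaining libraries still did not overlap in depth, since the 7 HFD libraries held 3690360 to 11932003 reads and the 4 SD libraries 1740356 to 2570715. Diet and depth cannot be told apart by leaving out shallow libraries alone, and the main results below are given with and without the 5.

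Behind the miRNA values stood few reads. The miRNA rows summed to 5843 to 97718 reads in HFD libraries (median 24985) and to 534 to 5327 reads in SD libraries (median 3987), so that the 2 groups did not overlap. Of the 125 miRNA rows, a median of 21 had under 10 reads in an HFD library, against 80.5 in an SD library. As a share of all assigned reads, miRNA came to 0.510% ± 0.193 in HFD libraries and 0.322% ± 0.438 in SD libraries (SD, n = 8 each). That difference was within the spread between rats (two-sided exact permutation p = 0.309), and the shallowest library, SD rat 1244, was high at 1.39% (95% Wilson interval 1.35% to 1.44%, counting error only). Without that library the means were 0.510% and 0.169%, with an exact permutation p of 0.00124 at n = 8 and 7. With any other single library left out, the exact permutation p was 0.220 to 0.502. Without all 5 shallow libraries the shares were 0.496% ± 0.204 in HFD and 0.216% ± 0.0477 in SD libraries (n = 7 and 4), with an exact permutation p of 0.0303.

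**Figure D1:**
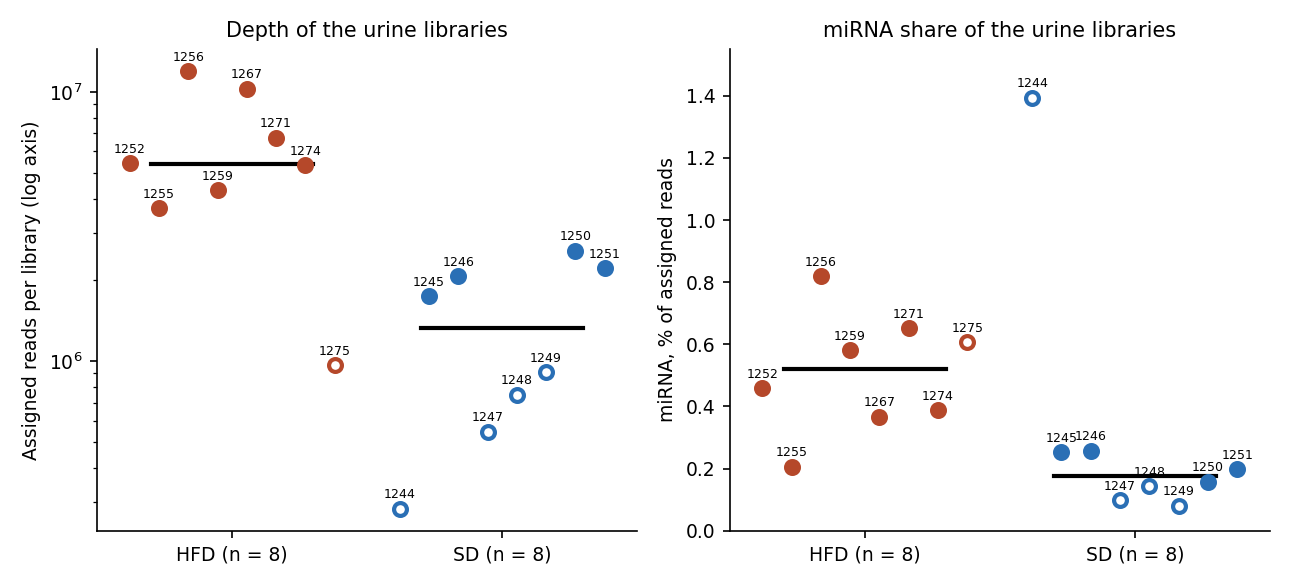
Assigned reads per urine library on a log axis (left) and the miRNA percent of those reads (right), 1 point per rat with its number, HFD left of SD, open points for the 5 shallow libraries and a bar at the median. In the left plot 7 HFD libraries sit above every SD library, and in the right plot SD rat 1244 stands at 1.39% while the other SD libraries lie between 0.0806% and 0.258%.

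Reads of tRNA made up nearly all urinary small RNA in both groups. The tRNA share was 98.4% ± 0.966 in HFD libraries and 98.2% ± 1.73 in SD libraries (SD, n = 8 each, two-sided exact permutation p = 0.783). Copies of the glycine tRNA with anticodon GCC took a median of 81.3% of the reads in HFD libraries and 73.6% in SD libraries, and those of the histidine tRNA with anticodon GTG took 12.0% and 15.3%. The snoRNA share was 0.00647% ± 0.00474 in HFD libraries and 0.0174% ± 0.0118 in SD libraries (exact permutation p = 0.0218, 0.0761 after adjustment over the 7 classes). The share of the 2 small Cajal body RNAs (scaRNAs), which guide the modification of snRNAs, was 0.000727% ± 0.000471 in HFD and 0.000254% ± 0.000107 in SD libraries (exact permutation p = 0.0145, adjusted 0.0761). Neither passed an adjusted 0.05.

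The rows called higher in HFD urine were nearly all miRNAs. Of 500 small RNAs tested, 58 were higher in HFD urine, 11.6% of those tested, and 15 were lower, 3.0%. To be called, a row needed a log2 fold change over 1 in size and a limma adjusted p under 0.1 (Benjamini-Hochberg), fitted after adding 1 to each normalized count and taking log2. Of the 58 higher rows, 57 were miRNAs, from 46 distinct mature miRNAs, and the other was a scaRNA. The share called higher among the 125 miRNA rows was 45.6%, and counts for single families are read against it. No miRNA was lower. Of the 125 miRNA rows 123 had a positive log2 fold change, and their median was 1.37, against 0.06 over all small RNAs and -0.30 over the tRNAs. The 15 lower rows were 9 tRNAs, 3 snRNAs, 2 snoRNAs and a 5.8S rRNA copy.

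These counts rested on how libraries were brought to a common scale and on the shallow libraries. Scaled to equal totals, the median of all log2 fold changes was -0.26 and there were 27 higher calls (5.35% of rows) and 24 lower calls (4.75%), which moved the split between them. Each library was also scaled to its own miRNA reads, which asks only how miRNAs shifted against each other. The miRNA median was then 0.11 and the median of all small RNAs was -1.23. There were 9 higher calls (1.78%) and 211 lower calls (41.6%), 2 of the lower calls being miRNAs. The 9 higher rows came from miR-101b-3p, miR-125b-5p, miR-205, miR-20a-5p, miR-218a-5p, miR-27a-3p, miR-29c-3p and miR-30e-5p. With log2 assigned reads added to the model, 0 small RNAs were called higher (limma, 66 rows in either direction at an unadjusted p under 0.05) and 4 were called lower (0.800%), while all 57 miRNA rows still had a positive estimate, with a median of 1.74 and a smallest adjusted p of 0.105.

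Without the 5 shallow libraries most miRNA estimates were still positive but most calls were lost. Of 499 small RNAs tested in 7 HFD and 4 SD libraries, 9 were higher in HFD urine (1.80% of those tested) and 5 were lower (1.00%). The higher rows were let-7i-5p, miR-101b-3p, miR-429, miR-200a-3p, miR-200b-3p, the 3 gene copies of miR-9a-5p, and a threonine tRNA copy, tRNA-Thr-TGT-4-1. The lower rows were 2 U6 snRNA copies, 2 SNORD14 snoRNA copies and an unnamed snoRNA. The miRNA median was 0.78 in these 11 libraries and 97 of 125 rows were above 0. All 57 rows called over 16 libraries stayed above 0, with a median log2 fold change of 1.37 in place of 2.02, and 51 of them had a smaller estimate. With log2 assigned reads also in the model of these 11 libraries, in which depth does not overlap between the diets, the miRNA median was -0.041, 62 of 125 rows were above 0, and 43 of the 58 higher rows were. In these 11 libraries edgeR called 0 rows (84 at an unadjusted p under 0.05) and DESeq2 called 30 higher and 6 lower, so that the number of calls depended on the tool.

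**Figure D2:**
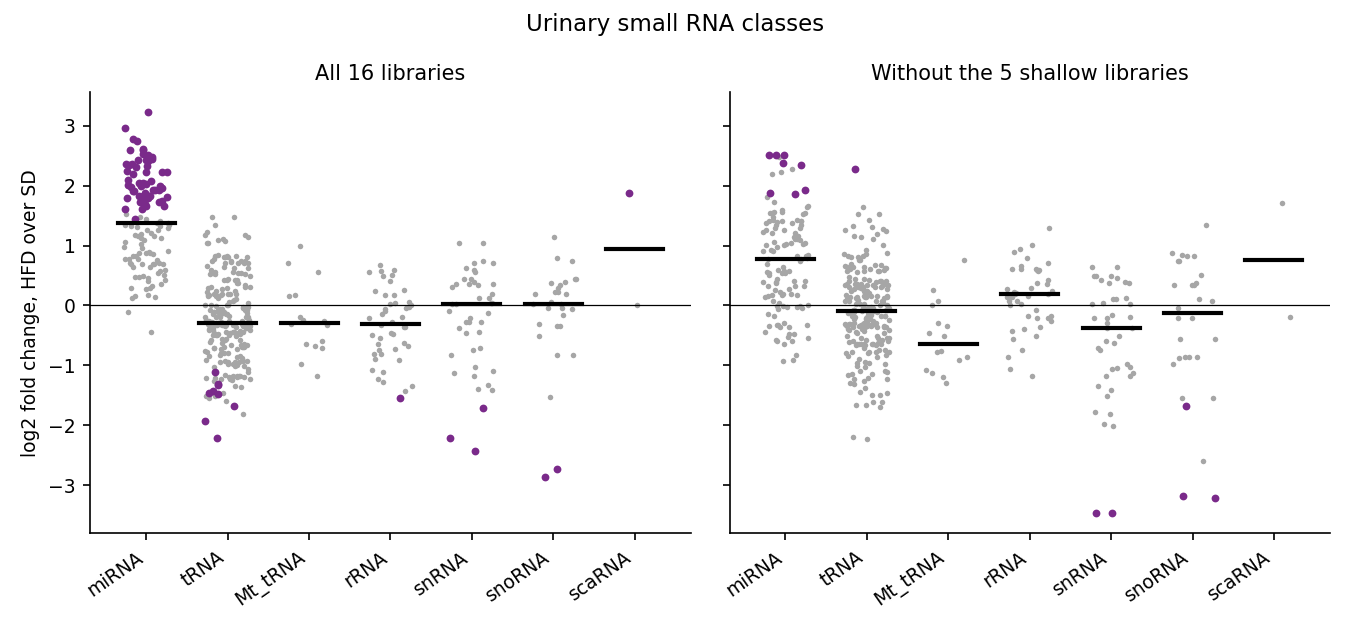
Log2 fold change of each small RNA, HFD over SD, by class, over all 16 libraries (left) and without the 5 shallow libraries (right), with called rows in purple, other rows in grey and a bar at the class median. The miRNA median stood at 1.37 on the left and 0.78 on the right, and no miRNA was called lower in either.

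**Figure D3:**
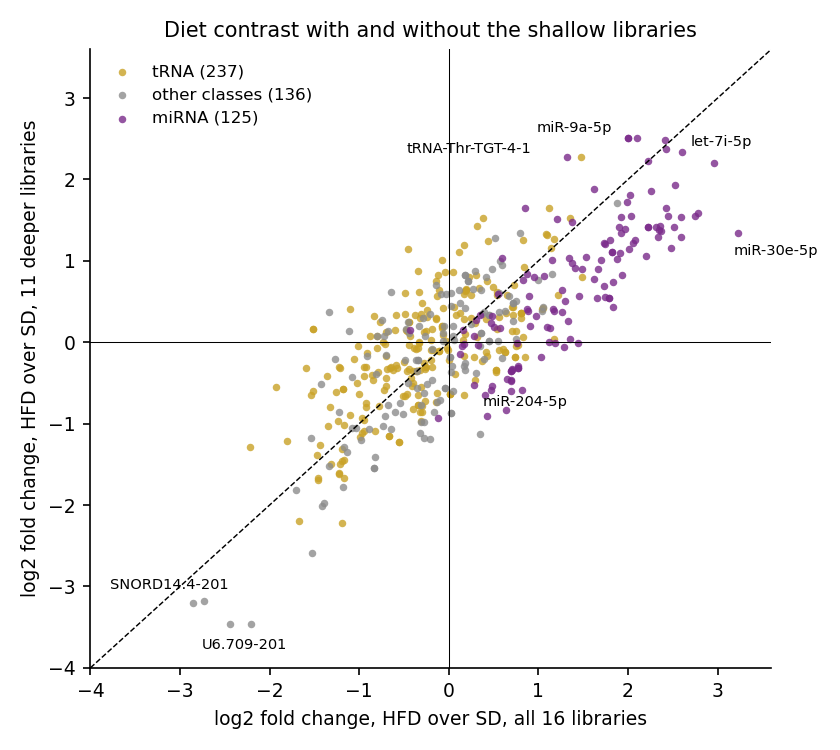
Log2 fold change of each small RNA (HFD over SD) over all 16 libraries on the x axis against that over the 11 deeper libraries on the y axis, with the line of equality dashed. Of the 57 called miRNA rows 51 lay under the line, such as miR-30e-5p (3.23 against 1.35), while miR-9a-5p, the U6 and SNORD14 copies and tRNA-Thr-TGT-4-1 moved as far or farther without the shallow libraries.

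Both miR-101 members were called higher in HFD urine. They share 1 seed and repress, among others, the histone methyltransferase Ezh2. The normalized count of miR-101a-3p (chr5:120168445-120168465, minus strand, Rnor6.0) ran from 17.3 to 113.1 in HFD urine with a median of 48.2, against 2.60 to 16.8 in SD urine with a median of 8.40. It was the only row of the 500 in which all 8 HFD libraries lay above all 8 SD libraries (0.200% of rows), and no row had all 8 HFD libraries below. The log2 fold change was 2.42 ± 0.56 (SE, limma adjusted p = 0.00746), and 1.65 without the shallow libraries (adjusted p = 0.149). For miR-101b-3p (chr1:247263783-247263803, plus strand) the counts were 7.19 to 45.3 in HFD urine (median 17.0) and 0 to 7.87 in SD urine (median 2.94). Here 7 of 8 HFD libraries lay above every SD library, and the log2 fold change was 2.53 ± 0.58 over 16 libraries (adjusted p = 0.00746) and 1.93 without the shallow ones (adjusted p = 0.0773). These counts stood for 10 to 83 reads per HFD library and 0 to 8 reads per SD library.

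The miR-30 family is abundant in podocytes and tubular epithelium of the kidney. Of 5 rows of the family measured, 2 were called higher, against 45.6% of all miRNA rows, and their median log2 fold change was 1.53, against 1.37 over all miRNAs. In HFD urine miR-30a-5p (chr9:29542640-29542661, plus strand) had normalized counts of 232 to 2044 (median 654), against 35.9 to 271.5 in SD urine (median 176). All but the lowest HFD library lay above the SD range. Its log2 fold change was 2.59 ± 0.54 (limma adjusted p = 0.00746), the smallest p of the table, and 1.29 without the shallow libraries (adjusted p = 0.192). Counts of miR-30e-5p were 33.1 to 390.3 in HFD urine (median 138) and 0 to 65.1 in SD urine (median 27.3), and its log2 fold change of 3.23 ± 0.71 was the largest estimate in the table. The lowest values of both were in shallow SD libraries, and without the shallow libraries miR-30e-5p was at 1.35 (adjusted p = 0.253). With the same seed, miR-30c-5p was not called at either of its gene copies (0.69 ± 0.59, adjusted p = 0.501), and its counts overlapped, at 39.8 to 392.2 in HFD urine and 9.11 to 230.3 in SD urine. In miR-30d-5p the log2 fold change was 1.53 ± 0.60 with an adjusted p of 0.102.

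The let-7 family, which restrains growth and developmental genes such as Lin28 and Hmga2, rose nearly as a whole. Of its 12 rows (9 mature forms, miR-98-5p included) 11 were called higher, against 45.6% of all miRNA rows. All 12 were positive, with a median log2 fold change of 1.82. The summed normalized counts of the 12 rows ran from 1415 to 10186 in HFD urine (median 2524) and from 147 to 3189 in SD urine (median 768). The leading member was let-7i-5p (chr7:66802736-66802757, plus strand), at 54.6 to 606.4 in HFD urine (median 162) and 5.75 to 92.6 in SD urine (median 40.1). It rose by 2.61 ± 0.59 on the log2 scale (limma adjusted p = 0.00746) and was the only let-7 row called without the shallow libraries (2.34, adjusted p = 0.0561). The other 11 rows then had a median of 1.14, with 10 of 11 positive. The let-7f-5p counts were 158 to 1641 in HFD urine (median 304) and 12.9 to 256.0 in SD urine (median 71.3). Scaled to miRNA reads, the let-7 median was 0.17, close to the 0.11 of all miRNAs.

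Members of the miR-10, miR-99 and miR-100 family, whose miR-10 genes lie in the Hox clusters, were called in 3 of 4 rows (45.6% over all miRNAs) with a median of 2.11. Counts of miR-99a-5p (chr11:16052165-16052186, plus strand) were 39.5 to 574.7 in HFD urine (median 127) and 2.19 to 71.1 in SD urine (median 18.3). The log2 fold change was 2.96 ± 0.64 (adjusted p = 0.00746), and 2.20 without the shallow libraries, where it was not called (adjusted p = 0.103), and turned to -0.22 with depth also in that model. It lies next to let-7c-5p in 1 cluster on chromosome 11, and both rows of that cluster were called. For miR-10b-5p the counts were 62.6 to 561.9 in HFD urine (median 224) and 9.11 to 137.1 in SD urine (median 54.1), a log2 fold change of 2.31 ± 0.54, and 1.419 without the shallow libraries (adjusted p = 0.197). In HFD urine miR-10a-5p was higher by 1.91 ± 0.55 (adjusted p = 0.0228), and miR-99b-5p was not called (0.82 ± 0.65).

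The miR-200 family, which holds epithelial cells in their epithelial state by repressing Zeb1 and Zeb2, had more called rows than the other listed families when the shallow libraries were left out. Of its 5 rows 4 were called over 16 libraries (median 1.80), against 45.6% of all miRNA rows. Without the shallow libraries 3 were called (median 1.88), against 8 of all 125 miRNA rows. Those 3, miR-200b-3p, miR-200a-3p and miR-429, come from a single cluster on the minus strand of chromosome 5, which spans 1841 bases from 173488342 to 173490182 (Rnor6.0). Counts of miR-429 were 22.3 to 144.4 in HFD urine (median 49.7) and 1.30 to 90.0 in SD urine (median 5.47). Its log2 fold change was 2.43 ± 0.66 (limma adjusted p = 0.0168), and 2.37 without the shallow libraries (adjusted p = 0.0561). In HFD urine miR-200a-3p ran from 167 to 728.2 (median 353), against 8.62 to 524.0 in SD urine (median 72.6).

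The shallowest library held the highest SD value of this cluster. For miR-200b-3p the HFD range was 170 to 825.9 (median 274) and the SD range 24.7 to 1464 (median 83.5), with the SD maximum in rat 1244, the shallowest library. In the 11 deeper libraries all 7 HFD values of miR-200a-3p and of miR-200b-3p lay above all 4 SD values, which held for 1.40% of rows, while those of miR-429 still overlapped. Over 16 libraries edgeR called none of the 3, with adjusted p-values of 0.159 for miR-429, 0.126 for miR-200a-3p and 0.752 for miR-200b-3p, while DESeq2 gave 0.0690, 0.0470 and 0.00277 for them. Scaled to miRNA reads, miR-200b-3p was at -0.11. The other arm of the miR-200a hairpin, miR-200a-5p, was among the 2 miRNA rows with a negative estimate (-0.44 ± 0.58, adjusted p = 0.690), the other being miR-191a-5p.

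The miR-29 family, which represses collagen genes, was called in 3 of 6 rows, near the 45.6% of all miRNA rows. Counts of miR-29a-3p were 82.7 to 433.1 in HFD urine (median 166) and 2.87 to 87.3 in SD urine (median 48.6), a log2 fold change of 2.51 ± 0.62 (adjusted p = 0.00968), and 1.417 without the shallow libraries (adjusted p = 0.192). All 7 deeper HFD libraries lay above the 4 deeper SD libraries, as in 1.40% of rows. The miR-29b-3p rows were not called, the first at 0.77 ± 0.57. Both miR-27 members were called (miR-27a-3p 2.36 ± 0.65 and miR-27b-3p 1.83 ± 0.60), against 45.6% of all miRNA rows. Of the 3 miR-125 rows 2 were called, the gene copies of miR-125b-5p (2.04 ± 0.57 and 1.92 ± 0.58). With the same seed, miR-125a-5p was not called (1.06 ± 0.59, adjusted p = 0.264). Of the miR-26 pair, miR-26b-5p was called (1.94 ± 0.61, adjusted p = 0.0354) and miR-26a-5p was not (1.17 ± 0.57, adjusted p = 0.206). None of these families had a called row without the shallow libraries. In the miR-17 family the contrast was uneven, with miR-20a-5p at 2.45 ± 0.59 (adjusted p = 0.00906) beside miR-17-5p at 0.17 ± 0.50 and miR-93-5p at 0.30 ± 0.53.

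**Figure D4:**
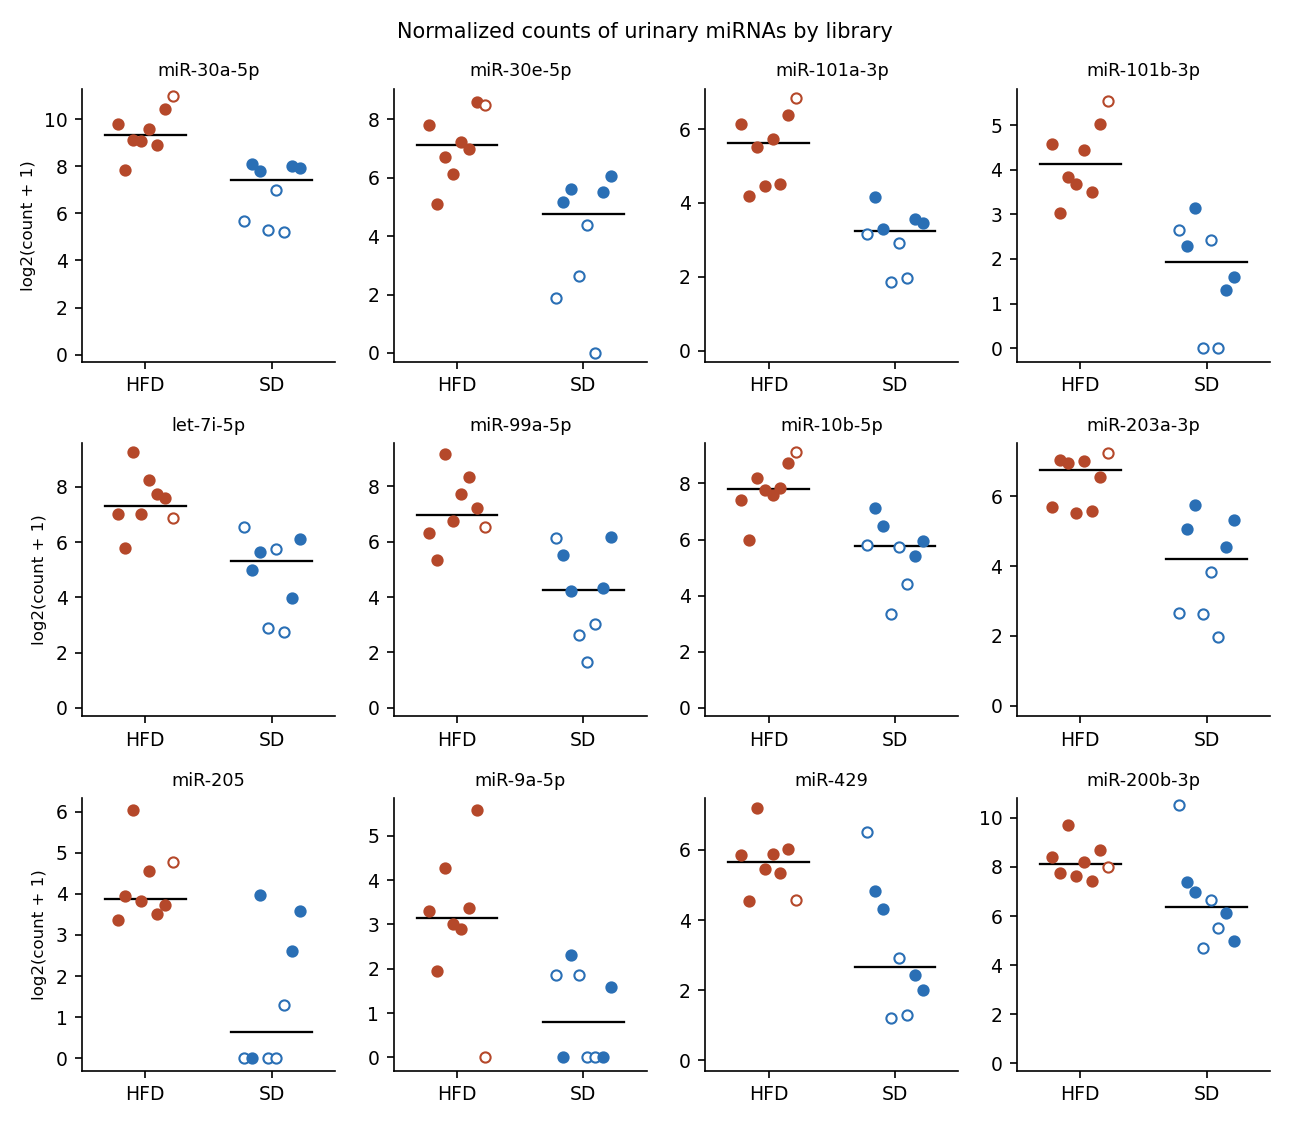
Log2 of the normalized count plus 1 of 12 urinary miRNAs, 1 point per rat, HFD left of SD, open points for the shallow libraries and a bar at the group median. For miR-101a-3p all HFD points lie above all SD points, for miR-30e-5p the lowest SD points are open ones, and for miR-200b-3p the highest point of all is the open SD point of rat 1244.

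Of the 3 miRNAs measured from the list for stratified epithelium and urothelium, miR-205 and miR-203a-3p were called higher in HFD urine (45.6% over all miRNAs), and miR-200c-3p was not (1.32 ± 0.72, adjusted p = 0.258). The miR-205 hairpin, whose product represses Zeb1 and Zeb2, lies on chromosome 13 (mature form at 112233336 to 112233358, minus strand). It was at 9.25 to 64.2 normalized counts in HFD urine (median 13.8), against 0 to 14.8 in SD urine (median 0.718). In reads, that was 7 to 403 per HFD library and 0 to 15 per SD library, so it was detected in all 8 HFD libraries and was at 0 in 4 of 8 SD libraries. The groups overlapped, and 3 HFD libraries exceeded the SD maximum. The log2 fold change was 2.78 ± 0.64 (limma adjusted p = 0.00746) and 1.59 without the shallow libraries (adjusted p = 0.265). It turned to -0.46 with depth also in the model of the 11 deeper libraries. Scaled to miRNA reads over 16 libraries it was at 1.78 and was called higher. For miR-203a-3p, which promotes keratinocyte differentiation, the counts were 45.1 to 150.9 in HFD urine (median 108) and 2.87 to 53.2 in SD urine (median 17.9), with a log2 fold change of 2.48 ± 0.58, and 1.16 without the shallow libraries (adjusted p = 0.253).

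Of the 4 miRNAs of the neuroendocrine list 3 were measured, and miR-124-3p had no row. Among their 6 rows 5 were called higher, against 45.6% of all miRNA rows. The neural miR-9a-5p has 3 gene copies that share nearly all reads, and the first (chr2:11884686-11884708, plus strand) was at 0 to 46.7 normalized counts in HFD urine (median 7.96), against 0 to 3.94 in SD urine (median 1.00). The lowest HFD value was in the shallow rat 1275, and 6 of 8 HFD libraries exceeded the SD maximum. It rose by 2.10 ± 0.61 on the log2 scale over 16 libraries (adjusted p = 0.0228) and by 2.51 without the shallow libraries (adjusted p = 0.0561). The SD values stood for 0 to 4 reads. Both gene copies of miR-7a-5p, which is enriched in pancreatic islets, were called (1.98 ± 0.63 and 2.02 ± 0.63, and 1.73 and 1.81 without the shallow libraries, adjusted p = 0.192 for both), while the islet miRNA miR-375-3p was not (0.48 ± 0.58, adjusted p = 0.657). Not on that list, the miR-218a-5p copies lie in introns of Slit2 and Slit3 in mammals. They rose by 2.75 ± 0.65 and 2.59 ± 0.64, with 0 to 8 reads in SD libraries. Without the shallow libraries they were at 1.545 and 1.540 (adjusted p = 0.281 for both), and at -0.95 and -0.96 with depth also in that model.

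Among single miRNAs, miR-21-5p, which is induced in injured kidney, was at 265 to 1145 normalized counts in HFD urine (median 845) and 27.3 to 466.6 in SD urine (median 183). Its log2 fold change was 1.96 ± 0.52 (adjusted p = 0.0145), and 1.39 without the shallow libraries (adjusted p = 0.192). The renal and intestinal miR-192-5p had counts of 120 to 524.2 in HFD urine (median 169) and 12.9 to 303.3 in SD urine (median 36.8). It rose by 1.83 ± 0.57 over 16 libraries (adjusted p = 0.0331) but was at 0.43 without the shallow ones (adjusted p = 0.776), and at -0.28 with depth also in that model. The miRNAs used as stable references in the study's urine qPCR were low and not called. Counts of miR-204-5p were 0 to 6.47 in HFD urine (median 3.17) and 0 to 6.01 in SD urine (median 3.38), and those of miR-181b-5p were 2.52 to 7.54 in HFD urine (median 4.58) and 0 to 7.01 in SD urine (median 3.99). Their log2 fold changes of 0.28 ± 0.54 and 0.47 ± 0.53 were under the miRNA median.

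Markers of the cell types that urine could hold were summed by library. All 14 kidney epithelium miRNAs of the list were measured, in 16 rows. Their summed normalized counts ran from 1605 to 6068 in HFD urine (median 3318) and from 197 to 4674 in SD urine (median 1336). Of the 16 rows 9 were called higher, against 45.6% of all miRNA rows, and 3 without the shallow libraries, against 8 of 125. Scaled to miRNA reads, their median log2 fold change was 0.0018 with 8 above 0, against 0.11 over all miRNAs. The 3 measured of 4 urothelial miRNAs summed to 86.8 to 505 in HFD urine (median 222) and 18.2 to 1254 in SD urine (median 58.7). Without the shallow libraries 0 of the 3 were called, and scaled to miRNA reads their median was 0.82 with 2 above 0. The miR-200c-3p counts entered both this list and the kidney list. For red blood cells, 3 of 7 listed miRNAs were measured and none was called, with sums of 23.4 to 131 in HFD urine and 1.30 to 68.8 in SD urine. The other listed ones, miR-451-5p, both arms of miR-144 and miR-486, had no row. Of 6 leukocyte miRNAs only miR-146a-5p was measured, at 0.560 to 26.4 in HFD urine and 0 to 10 in SD urine (1.12 ± 0.59, adjusted p = 0.250). Liver miR-122-5p had no row. Of 6 muscle miRNAs only miR-499-5p was measured, and it was called (2.20 ± 0.64, and 1.06 without the shallow libraries, adjusted p = 0.336). Of 4 endothelium and smooth muscle miRNAs only miR-143-3p was measured, and it was not called (0.89 ± 0.58, adjusted p = 0.363). The part of these cell types in the diet contrast was not tested.

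The lowest log2 fold changes in HFD urine were in nuclear RNAs. SNORD14 is a box C/D snoRNA that takes part in the processing and methylation of the small-subunit ribosomal RNA. The SNORD14.4 copy (chr8:44992058-44992143, plus strand) had normalized counts of 0 to 64.7 in HFD urine (median 3.71), against 15.9 to 267.2 in SD urine (median 69.6). In recovered reads this was 0 to 97 per HFD library and 6 to 267 per SD library, fewer in the group with the deeper libraries, and 5 of 8 HFD libraries lay below all SD libraries. The log2 fold change was -2.86 ± 0.74 (limma adjusted p = 0.0133), and -3.21 without the shallow libraries (adjusted p = 0.0561). The SNORD14.1 copy, which lies beside it (chr8:44991645-44991729) and had nearly the same reads (a difference of 8 at most in any library), fell by 2.73 on the log2 scale and cannot be counted as a separate finding.

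U6 snRNA, which forms part of the catalytic core of the spliceosome, was lower in the same way. The U6.709 copy (chr6:116658593-116658699, minus strand) was at 0 to 8.43 normalized counts in HFD urine (median 0.379), against 0 to 34.5 in SD urine (median 16). The only SD library at 0 was rat 1244, the shallowest, and in the 11 deeper libraries all 7 HFD values lay below all 4 SD values (1.20% of rows). It fell by 2.44 ± 0.66 over 16 libraries (adjusted p = 0.0164) and by 3.46 without the shallow libraries (adjusted p = 0.00813), the smallest adjusted p of that contrast together with the U6.44 copy, whose reads differed by 3 at most. These 4 rows were the only ones still called when depth was added to the model, U6.709 at -3.92 and SNORD14.4 at -4.25 (adjusted p = 0.0242 for both). All 4 kept a negative estimate under each alternative run, the weakest being SNORD14.4 at -0.46 with depth in the model of the 11 deeper libraries, where none of the 4 was called, nor was any by edgeR in those libraries. The U1.42 copy of U1 snRNA, which recognises the donor splice site, had a median of 2.42 in HFD urine and 11.3 in SD urine, with 0 to 27 reads per HFD library and 1 to 29 per SD library, and a log2 fold change of -1.70 ± 0.59 (adjusted p = 0.0543).

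Over the 45 snRNA rows the median log2 fold change was 0.02, with 23 above 0 and 3 called lower. With depth also in the model of the 11 deeper libraries the snRNA median was 0.95. There 35 of 44 rows were above 0, 3 were called higher and 0 lower. The 12 U2 rows had a median of -0.20 and none was called. The 27 snoRNA rows other than SNORD14 had a median of 0.05 and none was called over 16 libraries. The scaRNA ENSRNOT00000081692 (chr10:106022125-106022308, plus strand) was higher, at 3.77 to 27.2 in HFD urine (median 11.5) and 0 to 4 in SD urine (median 2.74), a log2 fold change of 1.88 ± 0.55 (adjusted p = 0.0228), and of 1.70 without the shallow libraries (adjusted p = 0.136), with 0 to 5 reads per SD library.

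Of the 237 tRNA rows tested 9 were called lower (3.80%, against 3.0% of all small RNAs) and none higher, and 155 were below 0. Over 16 libraries tRNA-Val-CAC-1-2, a valine tRNA copy (chr10:34167826-34167899, plus strand), led with 0.321 to 18.5 normalized counts in HFD urine (median 3.99), against 1.29 to 95.3 in SD urine (median 26.6). Its log2 fold change was -2.21 ± 0.66 (adjusted p = 0.0257), and -1.29 without the shallow libraries (adjusted p = 0.386). For the aspartate copy tRNA-Asp-GTC-3-1 the counts were 6.61 to 71.7 in HFD urine (median 18.1) and 20.7 to 398.3 in SD urine (median 66.4). The 4 highest SD values were those of the 4 shallow SD libraries, and the log2 fold change was -1.93 ± 0.63 over 16 libraries and -0.55 without the shallow ones (adjusted p = 0.720). No tRNA was called lower without the shallow libraries. The most abundant tRNA row, tRNA-Gly-GCC-1-4, was not called.

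The tRNA copy called higher without the shallow libraries had not been called over all 16. Counts of tRNA-Thr-TGT-4-1 (chr10:55047573-55047646, minus strand) were 2.16 to 32 in HFD urine (median 13.3) and 0.984 to 21.2 in SD urine (median 2.90), with the highest SD values in the shallow rats 1244 and 1247. The log2 fold change was 1.48 ± 0.62 over 16 libraries (adjusted p = 0.128) and 2.28 in the 11 deeper ones (adjusted p = 0.0561).

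**Figure D5:**
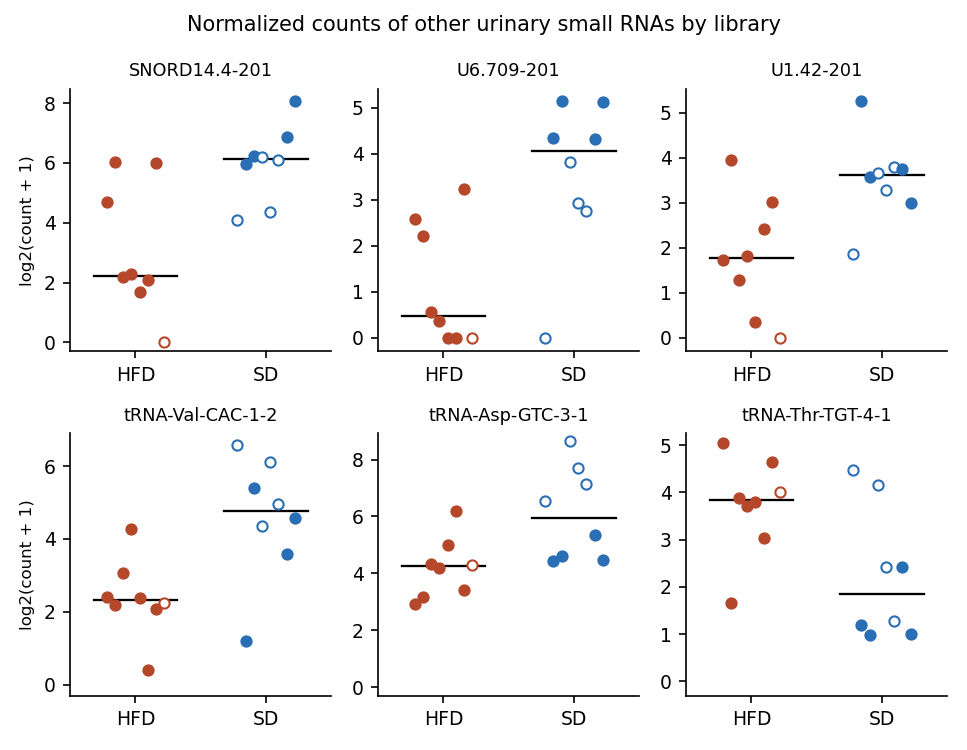
Log2 of the normalized count plus 1 of 6 urinary small RNAs that are not miRNAs, 1 point per rat, HFD left of SD, open points for the shallow libraries and a bar at the group median. For SNORD14.4 and U6.709 the deeper SD libraries (filled) are the high ones, while for tRNA-Asp-GTC-3-1 the shallow SD libraries (open) are, and for tRNA-Thr-TGT-4-1 the 2 highest SD points are open.

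The kidneys of rats from the same cohort gave no call for the miRNAs of the urinary contrast. Of the 57 miRNA rows called in urine 56 were measured in kidney small RNA (8 HFD and 7 SD libraries), and their median log2 fold change there was -0.08, against -0.08 over all kidney miRNAs, with 19 of 56 above 0. None was called (limma, adjusted p under 0.05 and log2 fold change over 1), 2 had an unadjusted p under 0.05, and over all 812 kidney small RNAs tested the count of calls was also 0, with 107 at an unadjusted p under 0.05. Of the called urinary miRNAs miR-205 had the largest estimate in kidney, with 259 ± 355 normalized counts in HFD kidneys and 57.5 ± 52.6 in SD kidneys (SD, n = 8 and 7) and a log2 fold change of 1.50 ± 0.76 (adjusted p = 0.338). In HFD kidneys miR-192-5p stood at 82131 ± 58404, against 173034 ± 81786 in SD kidneys (-1.18 ± 0.45, adjusted p = 0.338). Its sign was opposite to that in urine, as it was for most of the 56 rows. Lower kidney estimates were those of miR-148a-3p (-1.53 ± 0.91, adjusted p = 0.373) and miR-1843a-5p (-1.24 ± 0.47, adjusted p = 0.338). The difference between the 2 tissues was not tested, because their tables were normalized separately.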

How the data were processed

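Urinary small RNA of 16 rats was analysed. The authors trimmed reads with cutadapt, counted them with the Subread tools over features of Rnor6.0, with miRBase and Ensembl among the annotations, and divided by DESeq2 size factors. The deposited values are these normalized counts (a signal, not raw counts). How multi-mapping reads were counted is not given in the sources used here. In each urine library the values were whole multiples of 1 step, so whole reads were recovered for 100.0% of values (tolerance 0.01 reads). The deposited fold change, p-value and pooled columns hold the authors' comparison and were not used. Rows with a mean normalized count of at least 1 (500 of 507) were fitted with limma 3.58.1 (R 4.3.3, trended variance) on log2(value + 1), and a fold change is on that scale and understates low rows. Urine calls needed a Benjamini-Hochberg adjusted p under 0.1 with a log2 fold change over 1 in size, and kidney calls an adjusted p under 0.05 with the same fold and a minimum mean of 5. Alternatives were edgeR 4.0.16 (quasi-likelihood) and DESeq2 1.42.0 on the recovered reads, other pseudocounts, filters and scales, array weights, robust variance, depth as a covariate, the libraries left out singly or as the 5 shallow ones, and identical rows counted once. Shares were tested by two-sided exact permutation. Of 507 rows 32 had values identical to another row, from gene copies, so counts of rows exceed counts of RNAs. A floor of 3 reads came to 0.478 to 11.3 normalized counts. Rats were separate animals, and each gave 1 urine library. Named small RNAs were the 10 called with the smallest p per direction, up to 4 members per list with the highest mean, the miRNAs the study names for urine by diet, its reference miRNAs, and those of its urine list that were called. Other names (such as miR-200a-5p, miR-191a-5p, tRNA-Gly-GCC-1-4, miR-21-5p and miR-192-5p) were chosen after their values were seen. The members, lists and tests were chosen with earlier results of these data known. The pipeline was tested on simulated data.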

Additional observations from a re-analysis of the deposited data

Results flagged for a closer look

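In 56 groups of 8 libraries (7 classes, depth and 20 small RNAs, each in both diets), 7 had 1 library standing apart from the other 7 by Dixon's ratio, above the critical value of 0.526. A rate of about 1 in 20 would hold for independent, normally distributed groups. These groups were measures of the same 16 libraries, so the 7 cannot be set against that rate. Of the 7, 4 were the shallow SD rat 1244. Its miRNA share was 1.39% against a group median of 0.177%, its miR-200b-3p count was 1464 against a median of 83.5, and it had 0 normalized counts of U6.709 and 0 of the scaRNA ENSRNOT00000081692, against medians of 16 and 2.74. The rRNA share of SD rat 1247, also shallow, was 5.01%, against a median of 0.717%. Among HFD libraries, rat 1275 had 963118 assigned reads against a median of 5382860, and rat 1259 had a mitochondrial tRNA share of 0.0851% against a median of 0.0106%. No cause was tested.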

How the results depend on the processing

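No paired analysis was possible because the diet groups share no rats, and the rat numbers are shared only between tissues. Higher calls numbered 58, of which 57 were miRNA, and lower calls 15, of which 9 were tRNA. Equal totals and scaling to tRNA reads each gave 27 higher (27 miRNA) and 24 lower (17 tRNA), and scaling to miRNA reads 9 higher (9 miRNA) and 211 lower (153 tRNA). With depth as a covariate there were 0 higher (0 miRNA) and 4 lower (0 tRNA), with 66 rows at an unadjusted p under 0.05. Without the shallow libraries there were 9 higher (8 miRNA) and 5 lower (0 tRNA). Higher calls were 42 by edgeR, 63 by DESeq2 and 67 with array weights, with 39, 56 and 61 miRNAs and with 2, 6 and 4 tRNAs. Of the 57 called miRNA rows edgeR called 38 and DESeq2 51. Lower calls were 25 by edgeR, 29 by DESeq2 and 32 with array weights, with 14, 19 and 20 tRNAs, and TMM factors gave 16 tRNAs. Leaving out each library in turn gave 41 to 67 higher calls (40 to 64 miRNA), 6 to 29 lower calls and 2 to 20 tRNA calls, lowest without SD rat 1249 for all, highest without SD rat 1244 for the higher and HFD rat 1255 for the lower. In all, 39 of the 57 miRNA rows and 5 of the 15 lower rows were called in each of these 16 fits. The 4 alternatives for the 11 deeper libraries were chosen after seeing the data. There edgeR gave 0 higher and 0 lower (84 at an unadjusted p under 0.05) and DESeq2 30 higher, against 9 and 5. Depth as a covariate gave 3 higher, all of them snRNAs, and 0 lower.

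Log2 fold changes of some called rows changed sign. Scaled to miRNA reads, miR-200b-3p was at -0.11 and miR-378a-3p at -0.078. By edgeR without the shallow libraries tRNA-Asp-GTC-3-1 was at 0.067. With depth as a covariate in the 11 deeper libraries, where depth and diet do not overlap, miR-99a-5p was at -0.22, miR-205 at -0.46, the miR-218a-5p copies at -0.95 and -0.96, miR-27b-3p at -0.055, miR-27a-3p at -0.68, miR-148a-3p at -0.85, miR-7a-5p at -0.058, miR-1843a-5p at -0.78, miR-378a-3p at -0.26, let-7g-5p at -0.14, miR-141-3p at -0.28, miR-192-5p at -0.28, miR-872-5p at -0.54, miR-450a-5p at -1.05, tRNA-Val-AAC-2-1 at 1.09, U1.42 at 0.56 and tRNA-Val-CAC-3-1 at 0.62. The cause was not tested. The miRNA share differed by 0.187 percentage points, and by 0.280 without the shallow libraries (exact permutation p = 0.0303). With 1 library left out it differed by 0.143 to 0.340, highest without SD rat 1244 (exact permutation p = 0.00124, against 0.220 to 0.502 without any other library). With few reads in SD libraries, 31 of the 57 called miRNA rows were at 0 in at least 1 SD library, which limits the size of any fold change.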

Other observations

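Some tRNA isotypes had all of their rows on 1 side of 0, and those described next were chosen after their values were seen. The pattern was not particular to them. The 6 aspartate GTC, 6 isoleucine AAT and 6 serine AGA rows were also all below 0, and the 5 lysine TTT rows all above 0. Over all 237 tRNA rows tested 155 were below 0. The 6 threonine AGT rows were all above 0 (median log2 fold change 0.74), as were the 5 threonine TGT rows (1.05) and the 4 phenylalanine GAA rows (0.99). The 6 serine GCT rows (median -1.31), the 6 leucine CAG rows (-1.06) and the 4 serine TGA rows (-1.06) were all below 0, with 1 serine TGA row called. Without the shallow libraries these medians were -0.14, 0.58 and 1.21 for threonine AGT, threonine TGT and phenylalanine, and -0.50, -1.06 and -0.11 for serine GCT, leucine CAG and serine TGA. The lysine CTT copies took a median of 0.688% of the reads in HFD libraries and 1.95% in SD libraries, and the valine AAC copies 0.449% and 1.79%.

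In the 11 deeper libraries both gene copies of miR-181b-5p, a reference miRNA of the study's urine qPCR, lay below all 4 SD values in all 7 HFD libraries, as 1.20% of rows did, with log2 fold changes of -0.59 and -0.65 (limma adjusted p = 0.564 and 0.507), so neither was called. The unnamed snoRNA called lower there, ENSRNOT00000084000, stood for 0 to 1 read in HFD libraries and 0 to 5 reads in SD libraries, and was not tested over 16 libraries because its mean was under 1.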
